A study of Mus musculus with 4 samples.

Results

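The H2 genes are the genes of the mouse major histocompatibility complex (MHC). Open chromatin at these genes was compared between blood stem and progenitor cells that lack Helios and wild-type cells. An H2 peak was any peak of the deposited table whose assigned gene name begins with H2 and a hyphen. The rule took 107 of the 130941 peaks, which carried 39 gene names. All 107 lie on chromosome 17, between positions 33972744 and 37271230 of build mm10, a span of 3298.5 kb. They were 75 to 1799 bp wide (median 374 bp, against 405 bp for all tested peaks), and 26 of them (24.3%) were of the promoter class, against 15.2% of all tested peaks.

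MHC molecules hold peptides at the cell surface for inspection by T cells. Classical class I molecules, built from the chains of H2-K1 and H2-D1 with beta-2 microglobulin, are carried by nearly all nucleated cells and show peptides from inside the cell. Class II molecules, built from an alpha and a beta chain, are carried mainly by dendritic cells, B cells and macrophages and show peptides from material taken up. The class Ib genes of the Q, T and M groups resemble the classical class I genes in sequence, vary less between individuals and have narrower roles. Helios, encoded by Ikzf2, is a zinc finger DNA-binding protein of the Ikaros family.

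The libraries came from 10-week-old mice, 2 Helios null and 2 wild type, with a library per mouse. The cells were Lin- Sca1+ cKit+ bone marrow cells, abbreviated LSK, a sorted fraction that holds the blood stem cells and early progenitors. In the fast-ATAC assay a transposase cuts accessible DNA and attaches sequencing adapters, so that reads gather over open regions called peaks. The way the Helios allele was made, the strain and its H2 haplotype are not stated in the sources used, and with 2 mice a group the p-values measure the spread between these few libraries.

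Counts over all peaks totalled 30290804 and 22433714 in Helios null 1 and 2, and 29745812 and 16033211 in wild type 1 and 2. Of these, 0.115% and 0.0944% fell in H2 peaks in Helios null, against 0.0897% and 0.0642% in wild type. Peaks of 4 Y-linked genes held 1166 and 2 counts in Helios null 1 and 2, and 1715 and 5 counts in wild type 1 and 2. Library number therefore went with sex and with depth in both genotypes. The most accessible of the 9 Ikzf2 peaks, at its promoter, held 22.2 and 24.0 CPM (TMM-normalised counts scaled to a common library size) in Helios null and 32.8 and 48.2 CPM in wild type (log2 fold change -0.80, SE 0.22, edgeR adjusted p = 0.189). Accessibility of the promoter does not show whether the protein is made, so this value is no check of the labels by itself. Promoter-class peaks were present at 9 of 11 LSK and stem cell markers, among them Kit, Cd34 and Gata2, with summed levels of 179 and 185 CPM in Helios null and 181 and 187 CPM in wild type. Ly6a, which encodes Sca1, has no peak in the table used here.

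The sequences of 5 promoters are shown as examples from the groups of genes described below, and were not chosen as typical members. They belong to both class II genes whose promoter peaks differed most between genotypes and to both classical class I genes. The last belongs to the M gene whose peak was the most accessible of all and lay lower in Helios null. Each is the 250 bases before the gene's start in RefSeq (GRCm38.p6), written 5′ to 3′ along the gene's own strand. Capitals mark matches, on either strand, to any of 5 short motifs: GGGAA, a core bound by Ikaros-family proteins; CCAAT, the core of the Y box; AGCAACNG, an X box core; GGGATTCCC, an NF-kB site; and GAAANNGAA, an interferon-response element. X and Y boxes are the elements through which the class II regulators RFX and NF-Y work.
H2-Eb1 (chr17:34305617-34305866, plus strand; 222 of the 250 bases lie in its promoter peak): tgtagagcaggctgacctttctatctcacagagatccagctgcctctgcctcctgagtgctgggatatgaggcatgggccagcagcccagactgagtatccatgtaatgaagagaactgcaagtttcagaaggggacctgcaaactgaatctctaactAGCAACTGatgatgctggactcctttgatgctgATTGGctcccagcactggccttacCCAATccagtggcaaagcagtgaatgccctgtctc
H2-Aa (chr17:34287824-34288073, minus strand; 229 bases in its promoter peak): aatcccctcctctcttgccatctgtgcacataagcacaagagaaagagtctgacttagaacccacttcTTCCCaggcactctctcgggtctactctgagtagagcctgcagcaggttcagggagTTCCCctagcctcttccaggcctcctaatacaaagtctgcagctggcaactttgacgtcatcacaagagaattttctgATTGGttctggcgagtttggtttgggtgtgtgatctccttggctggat
H2-K1 (chr17:34000348-34000597, minus strand; 250 bases in its promoter peak): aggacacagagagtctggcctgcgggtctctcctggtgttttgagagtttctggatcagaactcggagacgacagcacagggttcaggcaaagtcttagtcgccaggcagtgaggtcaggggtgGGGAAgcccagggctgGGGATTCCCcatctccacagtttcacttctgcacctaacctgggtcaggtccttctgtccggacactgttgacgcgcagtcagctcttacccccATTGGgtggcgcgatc
H2-D1 (chr17:35262844-35263093, plus strand; 250 bases in an exon-class peak): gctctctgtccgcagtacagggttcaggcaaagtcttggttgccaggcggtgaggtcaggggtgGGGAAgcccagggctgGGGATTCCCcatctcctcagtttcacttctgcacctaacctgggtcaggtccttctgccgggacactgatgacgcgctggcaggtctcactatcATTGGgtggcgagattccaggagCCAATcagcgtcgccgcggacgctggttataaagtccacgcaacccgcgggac
H2-M3 (chr17:37269984-37270233, plus strand; 193 bases in an exon-class peak): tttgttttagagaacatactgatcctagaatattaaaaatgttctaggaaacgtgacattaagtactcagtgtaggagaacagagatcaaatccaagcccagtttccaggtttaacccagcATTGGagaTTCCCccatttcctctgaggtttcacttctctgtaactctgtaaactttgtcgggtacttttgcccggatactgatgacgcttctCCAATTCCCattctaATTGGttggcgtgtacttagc

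RefSeq held 38 of the 39 H2 gene names, and a promoter for 26 of them; for 15 genes the 250 bases overlapped an H2 peak. CCAAT was found in 22 of the 26 H2 promoters (84.6%), against 34.5% of the 27025 RefSeq promoters searched in the same window. GGGAA was found in 18 (69.2%), against 55.9% of all. GGGATTCCC, whose letters hold GGGAA on the opposite strand, was found in 4 (15.4%), those of H2-K1, H2-D1, H2-Q6 and H2-Q7, against 0.311% of all. These 4 class I promoters resemble each other in sequence beyond the motif, as the printed H2-K1 and H2-D1 stretches show. AGCAACNG was found in 2 (7.69%), those of H2-Eb1 and H2-Eb2, against 4.11%, and GAAANNGAA in 2 (7.69%), those of H2-T23 and H2-T22, against 7.16%. A match describes letters in this window, and binding was not measured.

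Levels of open chromatin differed widely among the H2 genes in both genotypes. Per kb of peak, the highest level among the most accessible peaks of the 39 genes was at H2-M3, with 57.6 and 65.0 CPM per kb in Helios null against 71.0 and 95 CPM per kb in wild type. H2-DMa followed with 66.2 and 47.1 CPM per kb in Helios null and 39.9 and 27.5 in wild type, so the libraries of these genes overlap and their order is not set beyond the spread. Over the 4 libraries the mean was 72.2 CPM per kb at H2-M3, 45.2 at H2-DMa, 36.8 at H2-Ke6, 32.8 at H2-K2 and 30.6 at both H2-Eb1 and H2-K1. The lowest, at H2-Q3, was 2.94 CPM per kb.

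**Figure D1:**
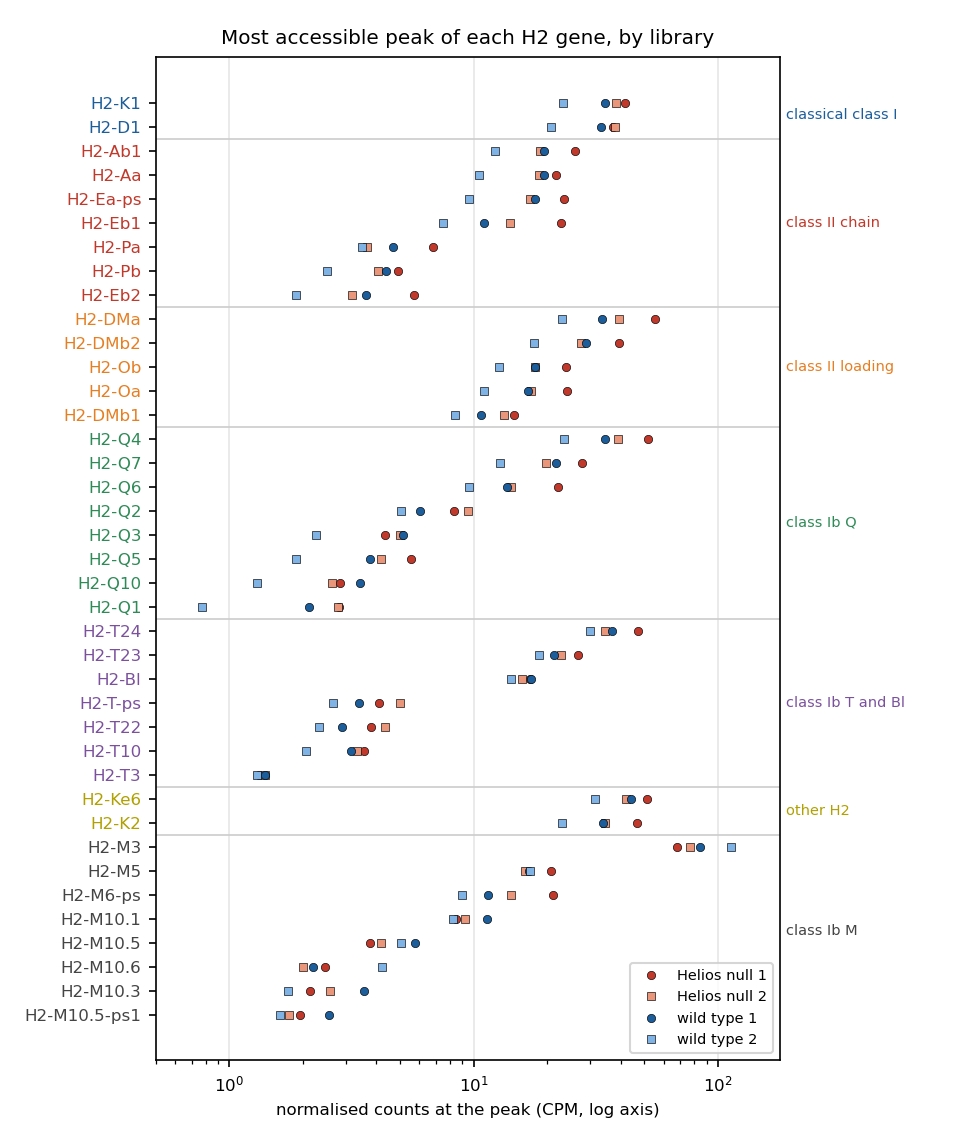
Normalised counts (CPM, log axis) at the most accessible peak of each of the 39 H2 genes, with a symbol for each of the 4 libraries and gene names coloured by role. In most rows outside the M group the Helios null 1 symbol lies furthest to the right and the wild type 2 symbol furthest to the left, while at H2-M3 the Helios null libraries (68.4 and 77.3 CPM) lie left of the wild-type ones (84.4 and 113 CPM).

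The genotype comparison asks whether accessibility at the MHC differs when Helios is absent. Most H2 peaks lay higher in Helios null: the fold change was above 0 in 93 of 107 peaks, against 50.4% of all 130754 tested peaks, with a median log2 fold change of 0.55 against 0.01 for all. No H2 peak passed the test over all peaks in the fit by genotype alone (edgeR quasi-likelihood, 2-sided, Benjamini-Hochberg adjusted p under 0.05; smallest adjusted p 0.189), a threshold that 0.00612% of all tested peaks passed, 0.000765% in the higher direction. At an unadjusted p under 0.05 there were 27 higher H2 peaks, beside 8.29% of all peaks, and 1 lower H2 peak, beside 11.5% of all. DESeq2 called 0 of the 30 H2 peaks it adjusted (2.88% of all it adjusted) and had 21 of 107 at an unadjusted p under 0.05 (14.4% of all). Limma-voom called 0 of 107 (0.00306% of all) and had 31 at an unadjusted p under 0.05 (19.2% of all). Both Helios null libraries exceeded both wild-type libraries in 60 of 107 H2 peaks (28.0% of all tested peaks) and lay below both in 5 (28.3% of all). In such bulk libraries more cells of a type and more open chromatin per cell cannot be told apart. Every H2 peak passed the filter on low counts, so no member is missing from these counts.

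The size of the shift depended on the libraries. Relative to each peak's mean over the 4 libraries, the median H2 peak stood at 0.45 and 0.12 (log2) in Helios null 1 and 2 and at 0.02 and -0.57 in wild type 1 and 2, while the same medians over all peaks were within 0.02 of 0. Helios null 2 and wild type 1 were thus near each other, and the outer libraries were Helios null 1 and wild type 2. Wild type 2, the shallowest library, was the lowest of the 4 in 88 of 107 H2 peaks (37.7% of all tested peaks), and Helios null 1, the deepest, was the highest in 78 (33.2% of all). The H2 median was 0.32 without Helios null 1, 0.71 without Helios null 2, 0.91 without wild type 1 and 0.30 without wild type 2. Without wild type 1, 49 of 107 H2 peaks passed the adjusted test (48 higher and 1 lower), against 21.4% of all tested peaks. There were 2 without Helios null 2 (1.59% of all), 2 without wild type 2 (0.781% of all) and 0 without Helios null 1 (0.0298% of all).

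**Figure D2:**
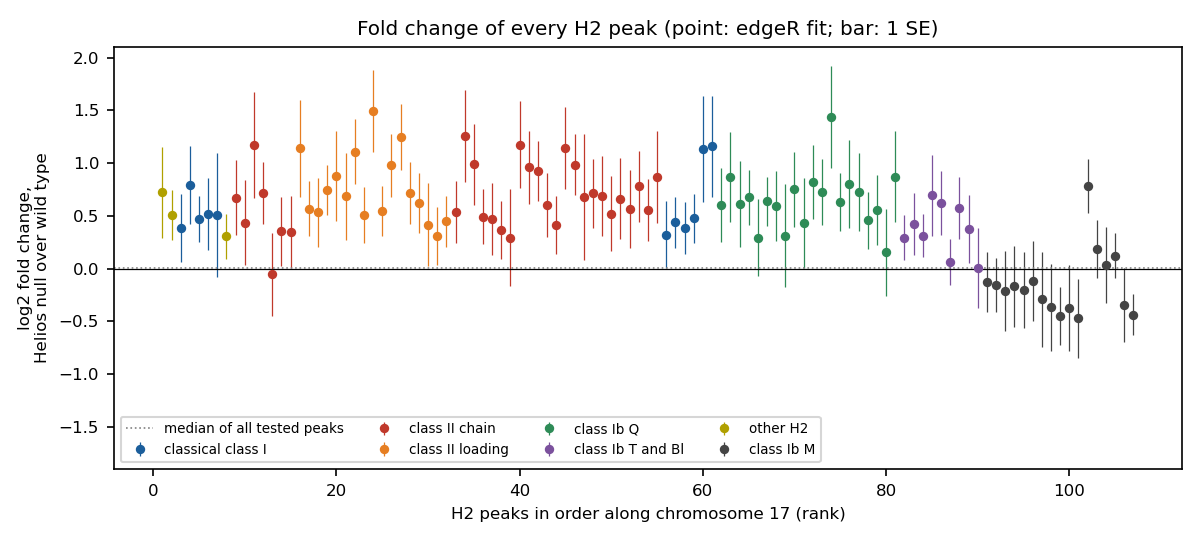
Log2 fold change (Helios null over wild type, edgeR) of each of the 107 H2 peaks in their order along chromosome 17, coloured by role, with bars of 1 SE; the dotted line is the median of all tested peaks (0.01). Of the 90 peaks outside the M group 89 lie above 0, and 13 of the 17 M peaks, at the right end, lie below it.

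The class II chain genes lay higher in Helios null at nearly all of their peaks. H2-Aa and H2-Ab1 encode the alpha and beta chains of the I-A molecule, and H2-Eb1 encodes the beta chain of I-E. H2-Ea-ps is named as a pseudogene of the I-E alpha chain, and H2-Eb2, H2-Pa and H2-Pb are further members of the family. RefSeq holds H2-Pa and H2-Pb as pseudogenes. The 30 class II chain peaks include 4 of H2-Ea-ps, 1 of H2-Pa and 6 of H2-Pb. Of the 30, 29 had a fold change above 0 (median log2 fold change 0.67). In that direction 10 had an unadjusted p under 0.05 (8.29% of all tested peaks), and 0 passed the adjusted test. Both Helios null libraries exceeded both wild-type libraries in 15 of the 30 (50%), and lay below both in 0. Over all tested peaks these shares were 28.0% and 28.3%. Among peaks of other genes between the H2-K1 and H2-M5 peaks, the share above both was 62.8%. Leaving out each library in turn gave medians of 0.30 to 1.04.

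The H2-Eb1 promoter peak (34305645 to 34306098), which covers the first sequence above, held 22.8 and 14.1 CPM in Helios null 1 and 2, against 11.1 and 7.49 CPM in wild type 1 and 2. The genotypes did not overlap, and number 1 lay above number 2 in each genotype. The means were 18.5 ± 6.12 CPM in Helios null and 9.28 ± 2.52 CPM in wild type (SD, n = 2 each), a log2 fold change of 0.98 (SE 0.29, edgeR adjusted p = 0.189). A second H2-Eb1 promoter-class peak (start 34306544) held 3.40 and 1.13 CPM in Helios null and 2.16 and 0.517 CPM in wild type, groups that overlap (log2 fold change 0.68, SE 0.60). The fold change of this second peak was -0.32 without Helios null 1.

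At the H2-Aa promoter peak (34287556 to 34288052) there were 21.0 and 14.3 CPM in Helios null, against 11.3 and 7.17 CPM in wild type. The groups did not overlap there either, with means of 17.6 ± 4.71 CPM in Helios null and 9.21 ± 2.89 CPM in wild type (SD, n = 2 each; log2 fold change 0.93, SE 0.28, edgeR adjusted p = 0.189). The 5 other H2-Aa peaks had log2 fold changes of 0.41 to 1.17, the highest at an exon-class peak of under 4 CPM in every library. The H2-Eb2 promoter peak held 3.66 and 2.53 CPM in Helios null and 2.62 and 1.61 CPM in wild type (log2 fold change 0.52, adjusted p = 0.414), and its groups overlapped.

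H2-Ab1 had 7 peaks, all with a fold change above 0 (log2 fold change 0.29 to 1.26) and none labelled as promoter class. Its most accessible peak (34263045 to 34263898), labelled as intron, spans the edge of the RefSeq gene at 34263227. That peak held 26.1 and 18.6 CPM in Helios null and 19.4 and 12.3 CPM in wild type. Helios null 2 was below wild type 1 there, and the log2 fold change was 0.49 (SE 0.26, adjusted p = 0.308). The 4 H2-Ea-ps peaks had log2 fold changes of 0.55 to 0.87. The only class II chain peak below 0 was 1 of the 6 of H2-Pb, at -0.05 (SE 0.39).

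The class II loading genes stood in the same range. H2-DM, made of an alpha chain from H2-DMa and a beta chain from H2-DMb1 or H2-DMb2, exchanges the peptides of class II molecules in endosomes, and H2-DO, made from H2-Oa and H2-Ob, holds H2-DM back. All 17 of their peaks had a fold change above 0 (median log2 fold change 0.69). In 13 both Helios null libraries exceeded both wild-type libraries. That share was 28.0% over all tested peaks and 62.8% over peaks of other genes between the H2-K1 and H2-M5 peaks. An unadjusted p under 0.05 was reached by 8 (8.29% of all in this direction). None of the 17 passed the adjusted test, and leaving out each library gave medians of 0.39 to 1.09.

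The 4 H2 peaks with the smallest p were 3 peaks of these genes outside the promoter class and the H2-Eb1 promoter. The first, an intergenic peak assigned to H2-DMb1 (34164975 to 34165547), held 10.1 and 6.02 CPM in Helios null and 3.45 and 3.36 CPM in wild type. Here the wild-type libraries lay close together, and the lower Helios null library was well above both (log2 fold change 1.25, SE 0.31, edgeR adjusted p = 0.189). The fold change within library number 1 was 1.53 and within number 2 was 0.83. In the authors' deposited table this peak has a log2 fold change of 1.0 and an adjusted p of 0.0515, the smallest for any H2 peak; that table calls 1.41% of the 54782 peaks with an adjusted p and 0 of the 48 such H2 peaks.

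A neighbouring intergenic H2-DMb1 peak (start 34164437) held 5.54 and 4.36 CPM in Helios null and 2.72 and 2.26 CPM in wild type (log2 fold change 0.98, SE 0.30, adjusted p = 0.189). A weak distant-promoter peak assigned to H2-DMb1 (start 34150210) held 3.27 and 2.36 CPM in Helios null and 0.830 and 1.23 CPM in wild type. It had the largest fold change of the 107, at 1.49 (SE 0.39, adjusted p = 0.189), and its groups did not overlap. At a distant-promoter peak of H2-DMb2 (start 34141548) there were 5.38 and 4.71 CPM in Helios null and 2.72 and 1.87 CPM in wild type, again without overlap (log2 fold change 1.11, SE 0.31, adjusted p = 0.189).

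H2-DMa had the most accessible class II loading peak (34135274 to 34136112, exon class), with 55.5 and 39.4 CPM in Helios null and 33.4 and 23.1 CPM in wild type. The means were 47.5 ± 11.4 CPM in Helios null and 28.3 ± 7.35 CPM in wild type (SD, n = 2 each; log2 fold change 0.74, SE 0.24, edgeR adjusted p = 0.190), and the groups did not overlap. Its 2 promoter-class peaks, both under 5 CPM in every library, had log2 fold changes of 0.88 and 0.69. The H2-DMb2 promoter peak held 39.2 and 27.5 CPM in Helios null and 29.0 and 17.6 CPM in wild type (log2 fold change 0.51, adjusted p = 0.296), so Helios null 2 was below wild type 1.

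The genes of the H2-DM inhibitor had values over a wide range. The most accessible promoter peak of H2-Ob held 23.9 and 17.8 CPM in Helios null and 17.8 and 12.7 CPM in wild type (log2 fold change 0.45, adjusted p = 0.316), and Helios null 2 stood beside wild type 1. The other 2 H2-Ob promoter-class peaks had log2 fold changes of 0.41 and 0.31, of which the second was -0.12 with an offset for gene density. H2-Oa had 3 peaks with log2 fold changes of 0.53 or more, the largest (1.1, SE 0.46) at a peak of 4.35 and 3.14 CPM in Helios null and 2.49 and 0.710 CPM in wild type.

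Classical class I genes had a smaller median than the class II groups. All 11 peaks of H2-K1 and H2-D1 had a fold change above 0 (median log2 fold change 0.47). In 9 of 11 both Helios null libraries exceeded both wild-type libraries (28.0% of all tested peaks). The adjusted test was passed by 0, and 2 had an unadjusted p under 0.05 (8.29% of all in this direction). Those 2 were weak intergenic H2-D1 peaks (starts 35269320 and 35270058) of under 3 CPM in every library, with log2 fold changes of 1.13 and 1.16. Leaving out each library gave medians of 0.30 to 0.78. The H2-K1 promoter peak (33999791 to 34000918) held 41.8 and 38.4 CPM in Helios null, against 34.5 and 23.2 CPM in wild type. The genotypes did not overlap, with wild type 2 well below the other 3, and the log2 fold change was 0.47 (SE 0.22, edgeR adjusted p = 0.262).

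The most accessible H2-D1 peak (35262623 to 35264422) covers the whole of the printed promoter and held 37.4 and 38.1 CPM in Helios null, against 33.3 and 20.7 CPM in wild type. The means were 37.8 ± 0.540 CPM in Helios null and 27.0 ± 8.92 CPM in wild type (SD, n = 2 each), with a log2 fold change of 0.47 (edgeR adjusted p = 0.278). Wild type 2 stood apart from the other libraries in this peak: the difference was 0.16 within library number 1 and 0.88 within number 2. Other H2 names lie at the same end of the complex as H2-K1. RefSeq holds H2-K2 as a transcribed pseudogene. The H2-K2 promoter peak held 46.7 and 34.6 CPM in Helios null, against 34.0 and 22.9 CPM in wild type, without overlap (log2 fold change 0.51, adjusted p = 0.259). H2-Ke6 encodes a steroid dehydrogenase and not an MHC molecule. Its promoter peak held 51.4 and 42.1 CPM in Helios null, against 44.2 and 31.3 CPM in wild type, groups that overlap (log2 fold change 0.30, adjusted p = 0.425; -0.11 with an offset for gene density).

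Among the class Ib genes, the 20 peaks of the 8 Q genes all had a fold change above 0 (median log2 fold change 0.64), 14 of them with no overlap between the genotypes and 6 with an unadjusted p under 0.05. Without wild type 2 the Q median was 0.36 with 3 of 20 below 0, and without wild type 1 it was 1.12. H2-Q4 had the most accessible of these peaks, at its promoter (35379018 to 35380416), with 51.6 and 39.0 CPM in Helios null and 34.5 and 23.4 CPM in wild type. The groups did not overlap (log2 fold change 0.64, SE 0.23, edgeR adjusted p = 0.201). H2-Q7, which encodes the lymphocyte antigen Qa-2, held 27.8 and 19.8 CPM at its promoter peak in Helios null and 21.7 and 12.8 CPM in wild type, so Helios null 2 was below wild type 1 (log2 fold change 0.46, adjusted p = 0.354). H2-Q10, whose protein is secreted by the liver, had the lowest Q value at its promoter peak, 0.16 (SE 0.41; -0.23 with an offset for gene density), at 2.84 and 2.62 CPM in Helios null and 3.42 and 1.29 CPM in wild type.

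The 9 peaks of the T genes and H2-Bl were all above 0 as well, with a smaller median of 0.37 (-0.02 with an offset for gene density). None had an unadjusted p under 0.05, beside 8.29% of all tested peaks in the higher direction. H2-T23 encodes Qa-1, which presents leader peptides of other class I chains to inhibitory receptors of natural killer cells. Its most accessible peak held 26.8 and 22.7 CPM in Helios null and 21.4 and 18.5 CPM in wild type (log2 fold change 0.31, SE 0.21, adjusted p = 0.396; -0.12 with the offset for gene density). The H2-T24 promoter peak held 47.3 and 34.5 CPM in Helios null and 36.8 and 30.0 CPM in wild type, groups that overlap (log2 fold change 0.29, adjusted p = 0.444; -0.14 with the offset for gene density). H2-Bl and H2-T3 were at 0.06 and 0.01 (SE 0.22 and 0.38), and at -0.35 and -0.38 with the offset for gene density. Many class I, Q and T genes are near-identical copies, and how reads that match several of them were counted is not stated in the sources used, so values of single genes in these groups are uncertain.

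Most M peaks differed from the rest in sign. Of their 17 peaks 13 had a fold change below 0, and the median log2 fold change was -0.20. All 5 H2 peaks with both Helios null libraries below both wild-type libraries were M peaks. They made 29.4% of the 17, near the 28.3% of all tested peaks. Among peaks of other genes in the M segment this share was 47.5%. Leaving out each library gave medians of -0.21 to -0.08, and without wild type 1 the M peaks were nearly balanced, with 8 above 0 and 9 below. H2-M3, which presents peptides that begin with N-formyl methionine as bacterial and mitochondrial proteins do, had the highest peak of the complex (37270041 to 37271230). It held 68.4 and 77.3 CPM in Helios null 1 and 2, against 84.4 and 113 CPM in wild type 1 and 2. The order of the libraries was the reverse of that at most H2 peaks, with wild type 2 highest and Helios null 1 lowest. The means were 72.9 ± 6.24 CPM in Helios null and 98.7 ± 20.2 CPM in wild type (SD, n = 2 each; log2 fold change -0.44, SE 0.19, edgeR unadjusted p = 0.0441, adjusted p = 0.243). The log2 fold change of H2-M3 was -0.25 with loess offsets by abundance and -0.79 with the offset for gene density.

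The M10 genes are a cluster known for expression in sensory neurons of the vomeronasal organ. Their 11 peaks were weak, at most 11.3 CPM in any library, and all had a fold change below 0. A peak assigned to H2-M10.5 (start 36788761) held 3.76 and 4.19 CPM in Helios null and 5.78 and 5.04 CPM in wild type, with no overlap (log2 fold change -0.45, SE 0.27, adjusted p = 0.359). Among the other 4 lower peaks without overlap, 2 further H2-M10.5 peaks and 1 of H2-M10.5-ps1 held under 2 CPM in every library, with log2 fold changes of -0.29, -0.37 and -0.12, and the last was that of H2-M3. The largest exception in the M group was the promoter peak of the pseudogene H2-M6-ps (36970933 to 36971803), at 21.1 and 14.3 CPM in Helios null and 11.5 and 8.98 CPM in wild type. Its log2 fold change was 0.78 (SE 0.26, edgeR adjusted p = 0.190), and its groups did not overlap. A second H2-M6-ps peak, at 0.18, and both H2-M5 peaks, at 0.03 and 0.12, were also above 0.

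Because library number went with sex and depth, each H2 peak was also read within a number, as the log2 CPM of the Helios null library minus that of the wild-type library, with 1 library on each side and no test. The median over the 107 peaks was 0.43 in number 1 and 0.71 in number 2. In 84 of 107 peaks the difference was above 0 in both numbers, against 37.0% of all tested peaks. Library 2 minus library 1 of the same genotype had a median of -0.32 (log2) in Helios null and -0.56 in wild type, gaps of the same order as the genotype difference. With library number as a term in the fit, which is then also a term for sex, 48 H2 peaks passed the adjusted test (47 higher and 1 lower), against 23.4% of all tested peaks, and 8 passed with the offset for gene density added (5 higher and 3 lower), against 13.8% of all. The shares of sex and of depth in the gap between the numbers cannot be told apart.

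**Figure D3:**
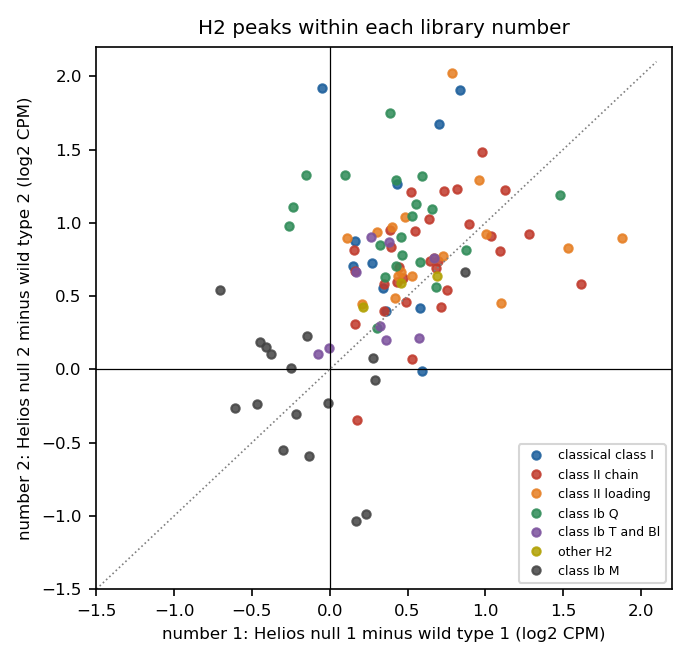
Each of the 107 H2 peaks by the Helios null minus wild type difference in log2 CPM within library number 1 (horizontal axis) and within number 2 (vertical axis), coloured by role. Most points lie at the upper right (84 peaks above 0 in both numbers), while the M peaks scatter around and below 0.

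Peaks of other genes lying between the H2 genes had similar values. Between the H2-K1 and H2-M5 peaks, 371 peaks of 161 other genes had a median log2 fold change of 0.49, 316 of them above 0. In 233 (62.8%, against 28.0% of all tested peaks) both Helios null libraries exceeded both wild-type libraries. In the class II segment the medians were 0.67 over 47 H2 peaks and 0.63 over 39 peaks of other genes. The class III interval, which holds complement, heat shock and other genes and no H2 peak, had a median of 0.61 over 147 peaks. From H2-D1 to the last Q peak the 26 H2 peaks had a median of 0.62 and the 3 peaks of other genes 0.85. The 100 peaks of other genes between the Q and T genes had a median of 0.47.

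At the T genes the medians were 0.37 over 9 H2 peaks and 0.16 over 17 peaks of other genes. In the M segment the sign was below 0 for both, with -0.20 over 17 H2 peaks and -0.28 over 61 peaks of other genes, 50 of them below 0. Chromosome 17 outside the H2 span had a median of 0.08 over 5362 peaks. The medians of H2 peaks and of other genes had the same sign in every segment that holds both, and the difference between them was not tested.

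**Figure D4:**
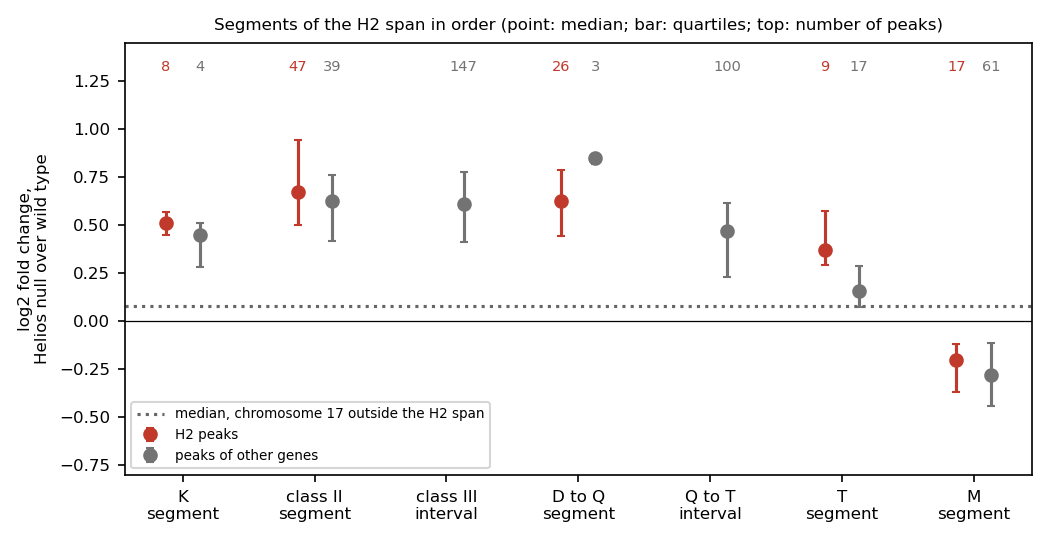
Median log2 fold change (Helios null over wild type; bars span the middle quartiles) of H2 peaks and of peaks of other genes in each segment of the MHC, in order along chromosome 17, with the number of peaks above each. H2 peaks and their neighbours have medians of 0.67 and 0.63 in the class II segment and -0.20 and -0.28 in the M segment, and lie further apart at the T genes (0.37 and 0.16) and from D to Q (0.62 and 0.85, the second over 3 peaks).

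The MHC is rich in genes, and the fold change went with gene density over the whole genome. Within 0.5 Mb of an H2 peak the table named a median of 70 genes, against 18 for all tested peaks, and 101 of the 107 H2 peaks were in the densest of 10 equal classes. Over all tested peaks the median log2 fold change was -0.63 in the sparsest class and 0.38 in the densest, and the share of peaks with both Helios null libraries above both wild-type libraries was 7.20% and 54.7%. H2 peaks outside the M group stood above the densest class, at a median of 0.60 over 90 peaks, with 64.4% of them without overlap. That class spans 36 to 77 genes, and these H2 peaks had a median of 70, toward its upper end. Peaks of other genes between the H2-K1 and H2-M5 peaks also stood above the class, at a median of 0.49. In 62.8% of them both Helios null libraries exceeded both wild-type libraries. M peaks, which had a median of 40 genes around them, stood below the densest class.

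With an offset that removes the trend with gene density from each library, the H2 median was 0.14, with 72 of 107 peaks above 0 and 11 at an unadjusted p under 0.05 (17.2% of all tested peaks with the same offset), 7 of them higher (8.54% of all). Below 0 with the offset were 21 peaks that lay above 0 without it, 11 of them the most accessible peak of their gene. The offset, fitted to these same libraries, moves H2 peaks down as a group, so such turns say little about single peaks. The median of the other peaks in the H2 span was 0.05 with this offset, against 0.46 without it. Class II chain peaks then had a median of 0.26 (25 of 30 above 0), class II loading peaks 0.28 (16 of 17) and Q peaks 0.21 (17 of 20). Classical class I peaks had 0.07 (8 of 11 above 0), T and H2-Bl peaks -0.02 (3 of 9), and M peaks -0.57 (1 of 17). With the offset the log2 fold change was 0.56 at the H2-Eb1 promoter, 0.51 at the H2-Aa promoter (adjusted p = 0.263), 0.80 at the H2-DMb1 peak at 34164975 (adjusted p = 0.208) and 0.32 at the main H2-DMa peak. It was 0.07 at the main peaks of both H2-K1 and H2-D1, 0.20 at H2-Q4 and 0.45 at H2-M6-ps. What makes the fold change go with gene density was not tested.

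**Figure D5:**
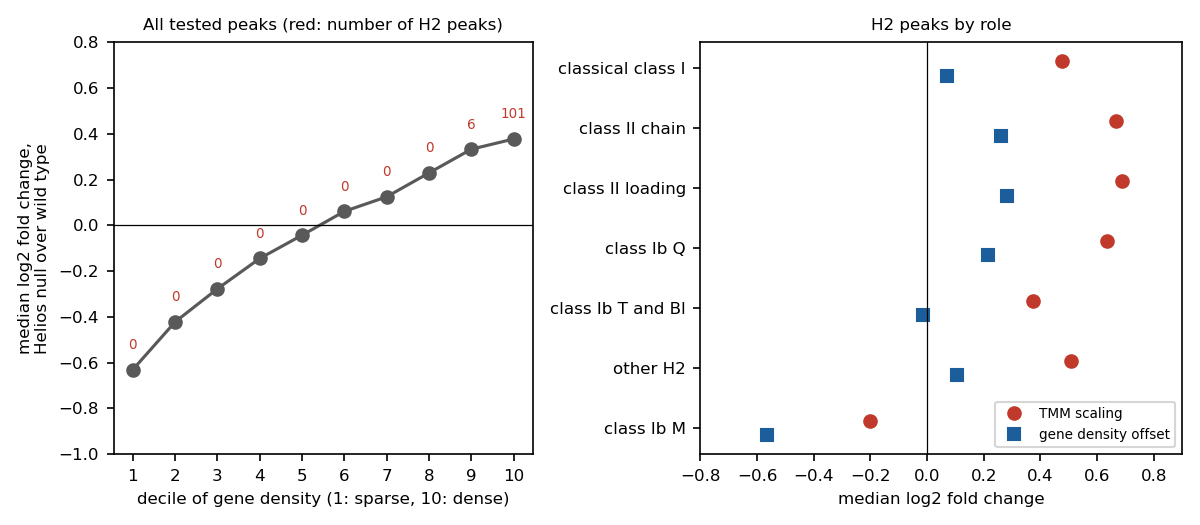
Left, median log2 fold change (Helios null over wild type) of all tested peaks in 10 classes of gene density, with the number of H2 peaks in red, from -0.63 in the sparsest class to 0.38 in the densest, which holds 101 of the 107 H2 peaks. Right, the median of H2 peaks by role with and without the gene density offset; class II chains stand at 0.26 with it and 0.67 without it, T and H2-Bl peaks at -0.02 with it and 0.37 without it, and M peaks at -0.57 with it and -0.20 without it.

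Genes of peptide supply and assembly for class I molecules also lay mostly higher in Helios null. The list held 15 genes of peptide cutting, transport and chain assembly, of which 13 had a peak. The median over their 35 peaks was 0.38 (log2 fold change), 32 were above 0, and 0 passed the adjusted test. In 22 (62.9%) both Helios null libraries exceeded both wild-type libraries. Over all tested peaks this share was 28.0%, and in the densest class of gene density 54.7%. How far gene density enters the values of these genes was not tested. Psmb8, Psmb9, Tap1 and Tap2, which lie in the class II segment and encode immunoproteasome subunits and the peptide transporter, had 13 peaks, all above 0 (median 0.69). The Psmb8 promoter peak held 43.8 and 36.9 CPM in Helios null and 30.6 and 17.9 CPM in wild type (log2 fold change 0.73, SE 0.25, edgeR adjusted p = 0.194).

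The 22 peaks of the list outside the H2 span had a median of 0.32, with 19 above 0. In 12 of the 22 (54.5%) both Helios null libraries exceeded both wild-type libraries, near the 54.7% of the densest class of gene density. The median log2 fold change of that class was 0.38. Among the 22 peaks, the promoter of Tapbp, the chaperone tapasin, had a log2 fold change of 0.60 (adjusted p = 0.204). That of the immunoproteasome gene Psmb10 had 0.47 (adjusted p = 0.255). Tapbp lies on chromosome 17 close to the H2 span, with its promoter peak starting at 33920155 and the first H2 peak at 33972744. Its 2 peaks were the only higher peaks of the 22 at an unadjusted p under 0.05. B2m, the partner chain of every class I molecule, had a median of 0.23 over 6 peaks, and Nlrc5, the class I transactivator, 0.37 over 5. Erap1, which trims peptides in the endoplasmic reticulum, lay the other way at -0.40 (adjusted p = 0.291) at its promoter.

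Genes of the class II pathway outside the complex did not lie to one side over all their peaks, while most of their promoters lay lower. The median over their 76 peaks at 15 genes was 0.00 (log2 fold change), and 39 were above 0. Both Helios null libraries exceeded both wild-type libraries in 17 (22.4%, against 28.0% of all tested peaks). They lay below both in 22 (28.9%, against 28.3% of all), so neither share stood above that of all peaks by more than 1 point. At an unadjusted p under 0.05 (edgeR) there were 12 lower peaks, beside 11.5% of all tested peaks, and 4 higher peaks, beside 8.29% of all. Of 13 genes with a promoter-class peak 4 lay higher there, and the promoter median was -0.12. The smallest p-values of this list were at promoters that lay lower. The promoter of Ctsl, a lysosomal protease, held 33.0 and 38.9 CPM in Helios null and 49.6 and 70.1 CPM in wild type (log2 fold change -0.73, SE 0.21, edgeR adjusted p = 0.189). Rfxap, a subunit of the RFX complex that binds the X box, had -0.68 (adjusted p = 0.189), and Creb1, which encodes a factor that binds class II promoters, had -0.42 (adjusted p = 0.227). The promoter of Ciita, the class II transactivator, held 4.75 and 3.71 CPM in Helios null and 6.51 and 4.20 CPM in wild type, groups that overlap. The promoter of Cd74, the invariant chain, held 10.2 and 4.67 CPM in Helios null and 3.99 and 5.04 CPM in wild type, which also overlap.

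Interferons raise MHC expression in many cell types, and 15 genes of interferon signalling were therefore read too. The median over their 127 peaks was 0.29 (log2 fold change), 104 were above 0, and 0 passed the adjusted test. In 68 (53.5%) both Helios null libraries exceeded both wild-type libraries. That share was 28.0% over all tested peaks and 54.7% in the densest class of gene density. The part of gene density in the values of this list was not tested. The 3 promoters with the smallest p were those of the receptor chain Ifngr2 (log2 fold change 0.50, adjusted p = 0.223) and the transcription factors Irf7 (0.56, adjusted p = 0.249) and Irf9 (0.38, adjusted p = 0.283).

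Class II genes are used most by antigen-presenting cells, so markers of such cells were read beside them. Promoter-class peaks of 4 of 8 B cell genes summed to 47.1 and 48.7 CPM in Helios null and 51.5 and 60.2 CPM in wild type. For 5 of 8 dendritic cell genes the sums were 54.6 and 47.8 CPM in Helios null and 53.1 and 41.8 CPM in wild type. Of these 5 promoters 3 lay higher, and those with the smallest p lay apart, Siglech at a log2 fold change of -0.99 and Zbtb46 at 0.62. For 5 of 7 macrophage and monocyte genes the sums were 31.9 and 27.7 CPM in Helios null and 26.7 and 23.6 CPM in wild type. The last sums kept the genotypes apart in the direction of the H2 peaks, with Cd68 at a log2 fold change of 0.94 and Adgre1 at -0.70, while over all 35 peaks of these genes the median was -0.24. Over all their peaks the medians were 0.24 for the dendritic cell genes (19 of 25 above 0), -0.12 for the B cell genes (18 of 53 above 0), 0.14 for the T and NK cell genes (14 of 20) and 0.15 for the stroma and endothelium genes (33 of 54). Sums for 3 of 8 T and NK cell genes were 28.2 and 25 CPM in Helios null and 23.1 and 20.0 CPM in wild type, likewise apart, and for 5 of 7 stroma and endothelium genes 64.2 and 58.9 CPM in Helios null and 60.3 and 55.9 CPM in wild type.

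Cd79a, Cd209a, Cd3g, Cd8a and Ncr1 have no peak in the table used here. The part of these cell types in the H2 values was not tested.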

How the data were processed

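Per the file headers, the deposited table holds raw counts per peak for each library, with no normalization, over a common set of 130941 peaks. The authors' baseMean is a signal, the mean of their scaled counts. The authors also deposited a log2 fold change of Helios null over wild type with its error, and a p-value and adjusted p-value for it, which were read only as their result. The build mm10, HOMER, DESeq, Bowtie2 2.3.4.3 and bcl2fastq 2.17.1.14 are named, without roles, per the submitters' processing notes. The peak caller, the pooling of libraries for peak calling and the treatment of reads that match several places are not stated in the sources used. Coordinates are as deposited.

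Counts were analysed in R 4.3.3 with edgeR 4.0.16 and limma 3.58.1. The filter filterByExpr kept 130754 peaks and dropped 187. Libraries were scaled by TMM (factors 1.00 and 1.02 in Helios null, 1.01 and 0.966 in wild type), and genotype was tested with glmQLFit and glmQLFTest without further terms, Benjamini-Hochberg adjusted over all tested peaks, at 0.05. CPM are TMM-normalised counts; log2 CPM used a prior count of 2. A count was worth 0.0330 and 0.0436 CPM in Helios null and 0.0332 and 0.0646 CPM in wild type, so peaks under 1 CPM rest on few counts. The test was first tried on simulated counts for the same comparison and 130754 peaks.

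Gene density was the number of distinct genes assigned in the peak table whose midpoint lay within 0.5 Mb of the peak's centre. The offset removed a loess trend with this density from each library. Alternatives were other scalings and filters, DESeq2 1.42.0, limma-voom, replicate number as a block, and each library left out; the block together with the density offset was added after seeing the data. No label ties equal library numbers to a litter or day. Counts of replicates did not match within counting error (chi-square over its degrees of freedom 5.13 in Helios null and 8.29 in wild type).

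The H2 members, roles, gene lists and tests were chosen with earlier results of these data known. Peaks described by name are the most accessible peak of each gene (8 in full), the 8 H2 peaks with the smallest p in each direction whose groups do not overlap (only 5 were lower), every promoter-class peak of classical class I and class II genes, and 3 promoters per list. H2-Ab1, H2-Q7, H2-Q10, H2-T23, H2-Bl, H2-T3, B2m, Nlrc5, Erap1, Ciita, Cd74, Cd68, Adgre1, Siglech and Zbtb46 were added for their known roles or as examples after their values were seen.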

Additional observations from a re-analysis of the deposited data

Results flagged for a closer look

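At 9 of the described H2 peaks the difference between Helios null and wild type had opposite signs in library numbers 1 and 2. With 1 library per number and genotype, none of these differences between the numbers was tested. Such opposite signs occurred in 17 of 107 H2 peaks and in 25.8% of all tested peaks. Values below are log2 CPM differences, number 1 minus number 2.

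The H2-Q3 peak differed by -1.35, with -0.24 in number 1 and 1.11 in number 2; its levels were 4.32 and 4.97 CPM in Helios null and 5.12 and 2.26 CPM in wild type, so wild type 2 stood apart. The H2-Q10 promoter peak differed by -1.24 (-0.26 and 0.98), again with wild type 2 lowest. H2-M10.3 differed by -1.25 (-0.71 and 0.54), and H2-M10.6 by 1.20 (0.17 and -1.03), where wild type 2, at 4.20 CPM, was the highest of the libraries. Smaller gaps were seen at H2-M10.1 (-0.56), H2-M10.5-ps1 (-0.49), H2-M5 (0.36), H2-T3 (-0.18) and H2-Bl (-0.15). All 9 are the most accessible peaks of their genes.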

How the results depend on the processing

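Over all tested peaks, 8 passed the edgeR test; 16 passed with the gene density offset, 991 with DESeq2, 4 with limma-voom, 30595 with replicate number as a block, 18072 with the block and the density offset, and 39 to 27955 with a library left out. Among H2 peaks 0 passed with every scaling, filter and tool tried without a block, against 48 with the replicate block (47 higher, 1 lower; 23.4% of all peaks), 8 with the block and the density offset (13.8% of all peaks), and 0 to 49 with a library left out. The block gains calls while library number also stands for sex and depth, and same-numbered libraries shared deviations from their group means (correlation 0.371 over all peaks, 0.255 over H2 peaks), a hint from the data and not from the labels. The 8 were peaks of H2-DMb1 (2), H2-Aa (2) and H2-Eb1, higher, and of H2-M10.1, H2-M10.5 and H2-M3, lower. The H2 median of 0.55 was 0.14 with the density offset, 0.14 with the block added to it, 0.30 to 0.91 with a library left out, 0.46 with 1 peak per gene, and 0.52 to 0.57 under the other settings. Among the 27 peaks named by rule, fold changes turned at H2-Ke6 (-0.11 with the density offset and -0.11 with the block added), H2-Ob at 34238733 (-0.12 and -0.12) and H2-T24 (-0.14 and -0.14), and at H2-Eb1 at 34306544 (-0.32 to 2.14 with a library left out, the lowest without Helios null 1). Over all 107 peaks, 21 turned below 0 with the density offset and 0 turned above it. The offset was fitted to these same libraries, and 101 of the 107 H2 peaks lie in the densest class. It therefore moves H2 peaks down as a group, so the direction of these turns was set by the offset. The causes were not tested. Low counts limit the weak peaks.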
